A study of Mus musculus with 6 samples.

Results

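Genes that mark T cells, natural killer (NK) cells and B cells were followed in the skin of mice carrying the LynDN transgene and of wild-type (WT) mice. The set was drawn up by name: 37 genes, of which 36 had at least 1 probe with that single gene symbol, out of 18617 named genes on the array. They were described in 3 groups, T (21 of 22 listed genes measured), NK and cytotoxic (7 of 7) and B (8 of 8). Tcf7, a transcription factor of T cells, was not analysed here. Skin RNA of 3 LynDN mice was compared with that of 3 WT mice on 6 arrays with 2 colours. The mice formed 3 pairs of 1 LynDN and 1 WT animal, and every pair was run on 2 arrays that differ in which animal carried which dye. LynDN mice 1, 2 and 3 met WT mice 1, 3 and 2 in pairs 1, 2 and 3. Lyn is a tyrosine kinase of the Src family; the title of the series spells the transgene LynDeltaN. Lyn itself was not analysed here. The sources used here do not give its promoter, or the age, sex and strain of the mice.

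Values are log ratios of LynDN and WT RNA as deposited, read here as log2, and the pair of mice served as the replicate (n = 3). The deposited numerator is not stated. The sign was therefore tied to the alarmin genes S100a9 and S100a8, whose ratios were 5.54 ± 0.16 and 4.61 ± 0.12 (SD, n = 3) and positive on 6 of 6 arrays, so that a positive ratio means the side of S100a9. Psoriasis-like skin disease is described for LynDN mice, and these alarmins are high in such skin, which makes LynDN the likely numerator. If WT were the numerator, every sign below would turn at once. Pair 1 stood apart: the Y-linked gene Eif2s3y gave 3.50 there but -0.0040 and 0.03 in pairs 2 and 3. Kdm5d, also Y-linked, gave 1.24, -0.05 and 0.13 in pairs 1, 2 and 3, and the X-linked Xist -1.06, -0.09 and -0.14. Uty, Y-linked too, gave 0.07, 0.13 and -0.48. Whether the mice of pair 1 differed in sex was not tested, and sex and genotype could not be told apart in that pair. Across rows pair 1 correlated with pairs 2 and 3 at 0.350 and 0.386, where pairs 2 and 3 correlated at 0.745 (genes are not independent replicates). Its 2 dye-swap arrays correlated at 0.0239 across rows, against 0.463 and 0.462 in the other pairs. Results are therefore also given without pair 1, from 2 pairs (n = 2). Pair 1 was left out on the ground of these same data, and keeping the 2 pairs most alike favours calls. Calls without pair 1 are thus no independent support. The files give ratios and no spot intensities, so it could not be checked that these probes, or markers of skin, were above background.

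T cells recognise antigen through a receptor whose signal passes through the CD3 chains, whose tyrosine motifs are phosphorylated by Src family kinases and then bind Zap70. B cells use a receptor that signals through the Cd79a and Cd79b chains in the same way, and there Lyn itself both starts the signal and, through inhibitory receptors such as Cd22, restrains it. NK cells and cytotoxic T cells kill with perforin and granzymes. Mouse skin holds both gamma delta and alpha beta T cells, whereas B cells are few in it.

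None of the 36 genes passed the limma test on the pair values (0 of 36, Benjamini-Hochberg adjustment over 22879 rows, adjusted p from 0.258 to 0.985), where 0.0175% of all rows passed. With the 6 arrays and the pair as a random block 0 of 36 passed too, against 1.06% of all rows, with a smallest adjusted p of 0.0566. At an unadjusted p under 0.05 on the pair values there were 2 members, Prf1 and Cd3g, on opposite sides, where 12.3% of all rows lay under it, and 3 members in the block fit, where 14.5% did. The median ratio of the 36 genes was 0.0048, beside -0.01 for all named genes, and 32 of them lay within 0.2 of 0. The medians were 0.0065 in the T group, -0.02 in the NK group and 0.0047 in the B group. Members were about as variable as other genes, with a median SD over pairs of 0.099 against 0.102 for all named genes.

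The intervals show what size of difference these arrays could have missed. For 35 of the 36 genes the 95% confidence interval of the mean ratio lay within 2-fold either way, and for 33 within 0.5 of 0 on the log2 scale. This held for most of the array as well, with 98% and 90.9% of all rows inside these limits. The exceptions at the narrower limit were Cd28, Prf1 and Ms4a1, and Ms4a1 was the exception at 2-fold. In whole skin, fewer cells of a type and less RNA per cell cannot be told apart, and a probe at background would also give a ratio close to 0, which was not tested.

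**Figure D1:**
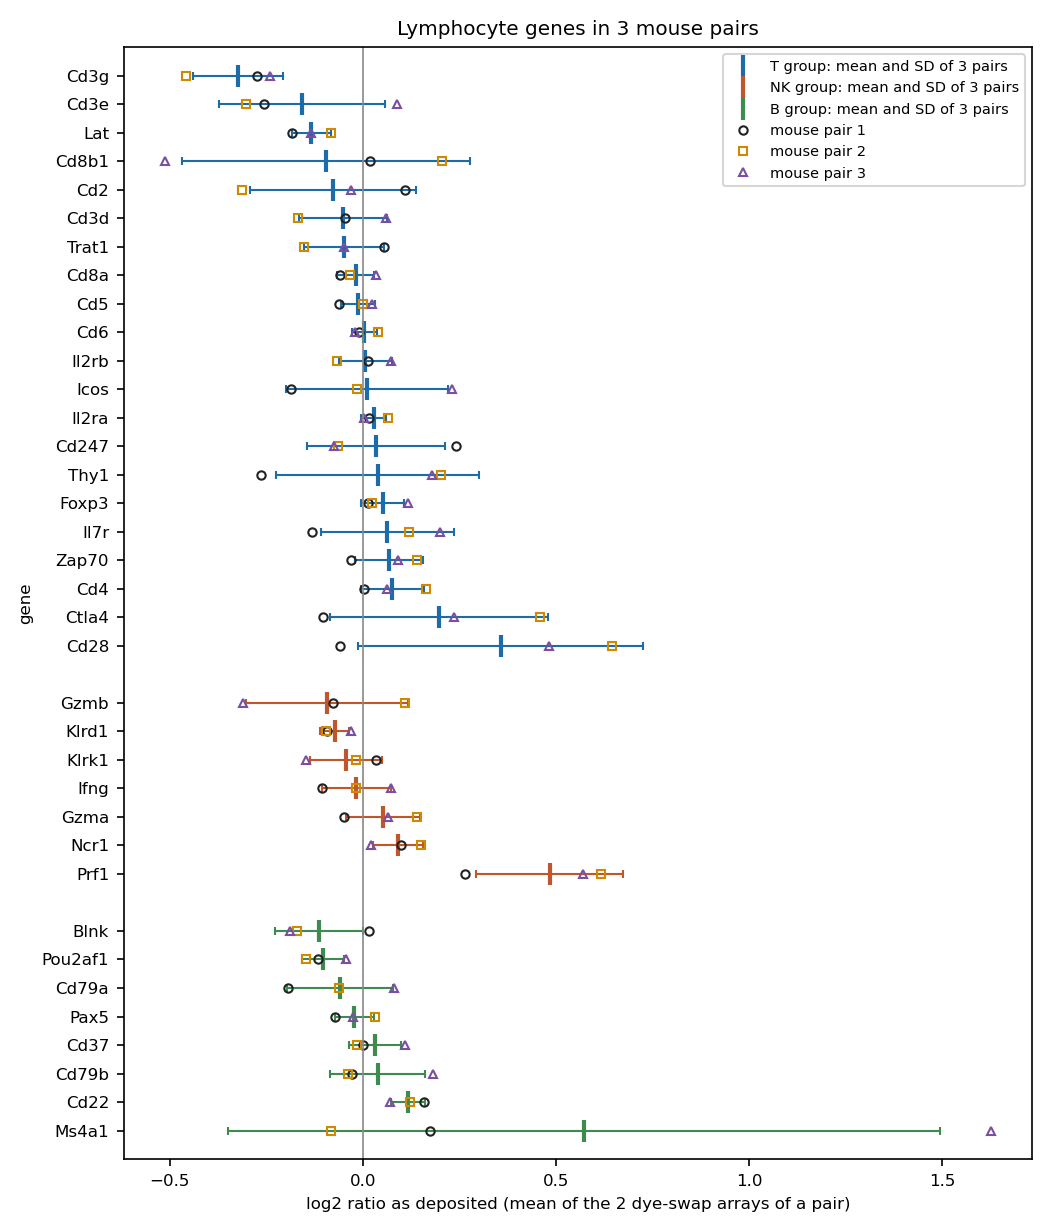
Log2 ratio of each of the 36 lymphocyte genes (horizontal axis) in mouse pairs 1, 2 and 3 (circles, squares and triangles), with the mean (vertical tick) and SD of the 3 pairs (bars), by T, NK and B group. Most genes cluster around 0; Cd3g lies below 0 in all pairs, Prf1 above 0 in all pairs, and Cd28 above 0 in pairs 2 and 3 alone.

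Among the 4 chains of the CD3 complex, Cd3g stood lowest and was below 0 on 6 of 6 arrays. Its arrays read -0.18 and -0.37 for pair 1, -0.47 and -0.45 for pair 2, and -0.18 and -0.30 for pair 3. All 6 arrays thus lay on the side opposite to S100a9, as in 1 of 36 members and in 4.31% of all rows, a share near the background. The mean was -0.32 ± 0.12 (SD, n = 3; 95% interval from -0.49 to -0.16), with adjusted p = 0.273 on the pair values and 0.0566 with the block. Cd3e, the chain that most antibodies to T cells bind, had -0.26, -0.30 and 0.09 in pairs 1, 2 and 3, and Cd3d had -0.05, -0.17 and 0.06. Neither held one side in all pairs. Cd247, the zeta chain, had 0.24, -0.06 and -0.08, and its pair 1 value rested on a single array with 0.51 beside -0.03 on the exchanged one. In pair 2 all 4 chains lay below 0, and 3 of the 4 means were negative. No difference between the chains was tested. The median of the complex was -0.15, -0.24 and -0.0079 in pairs 1, 2 and 3.

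Cd3g and Cd3d lie side by side on chromosome 9 and are transcribed away from each other. Their promoters are shown because Cd3g was the member with 6 negative arrays and Cd3d is its neighbour, and that of Prf1 because it was the member with 6 positive arrays. Each runs from 250 bases before to 50 after a start site (RefSeq, GRCm38.p6), 5′ to 3′ on the gene's strand, with capitals marking AGGAAG, a core bound by ETS factors, and TGTGGT, a core bound by RUNX factors, on either strand; the 2 motifs did not overlap in these windows.
Cd3g, chr9:44980382-44980681 (- strand): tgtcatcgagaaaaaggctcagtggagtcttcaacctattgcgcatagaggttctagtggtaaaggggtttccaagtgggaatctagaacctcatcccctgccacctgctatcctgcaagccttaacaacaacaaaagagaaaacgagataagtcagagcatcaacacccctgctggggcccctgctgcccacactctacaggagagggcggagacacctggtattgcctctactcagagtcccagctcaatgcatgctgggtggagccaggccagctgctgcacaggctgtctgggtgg
Cd3d, chr9:44981536-44981835 (+ strand): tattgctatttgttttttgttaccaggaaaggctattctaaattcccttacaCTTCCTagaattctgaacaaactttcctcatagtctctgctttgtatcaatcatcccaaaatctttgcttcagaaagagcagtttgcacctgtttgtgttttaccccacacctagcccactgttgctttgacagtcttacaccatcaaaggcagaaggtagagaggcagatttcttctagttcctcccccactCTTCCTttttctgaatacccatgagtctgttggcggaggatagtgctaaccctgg
Prf1, chr10:61297586-61297885 (+ strand): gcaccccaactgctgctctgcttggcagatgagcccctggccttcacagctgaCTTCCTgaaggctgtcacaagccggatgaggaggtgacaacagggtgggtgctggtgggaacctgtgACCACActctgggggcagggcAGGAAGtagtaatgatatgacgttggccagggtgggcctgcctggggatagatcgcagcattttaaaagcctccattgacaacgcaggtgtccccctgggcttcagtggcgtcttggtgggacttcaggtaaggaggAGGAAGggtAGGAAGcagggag
The Cd3g window held neither motif, the Cd3d window held the ETS core 2 times, and the Prf1 window held the ETS core 4 times and the RUNX core 1 time. Of 32851 promoter windows of 300 bases, 35.4% held the ETS core and 16.8% the RUNX core, against 15 and 10 of the 29 windows of the 25 members in the table. These are matches of letters and carry no information on binding in these mice.

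The co-receptors gave small means. Cd4, the co-receptor of helper T cells, had -0.39, -0.15 and -0.22 with LynDN in Cy3 and 0.39, 0.48 and 0.35 with LynDN in Cy5, in pairs 1, 2 and 3. Its sign followed the dye and not the genotype: the orientations differed by 0.66 (adjusted p = 0.0210, dye term of limma's block fit), a test that 2.56% of all rows passed, and averaging over the swap left 0.08 ± 0.08 (SD, n = 3). Cd8a, on cytotoxic T cells, had -0.02 ± 0.05 from 2 probes with means of -0.04 and -0.0024. Its partner chain Cd8b1 had 0.02 and 0.21 in pairs 1 and 2. Its value of -0.51 in pair 3 came from 1 array with -1.14, where the exchanged array gave 0.12.

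Behind the receptor, the kinase Zap70 had -0.03, 0.14 and 0.09 in pairs 1, 2 and 3. The adaptor Lat, which Zap70 phosphorylates, had -0.18, -0.08 and -0.13, a mean of -0.13 ± 0.05 (SD, n = 3; adjusted p = 0.405). That small SD hides the arrays: the 2 dye orientations of Lat read -0.65 and 0.28 for pair 1, -0.04 and -0.12 for pair 2, and -0.29 and 0.02 for pair 3, and in the block fit its adjusted p was 0.620. Trat1, an adaptor of the receptor complex, had -0.05 ± 0.10.

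Cd28 and Ctla4 had the highest means of the T group. Cd28, which gives naive T cells their second signal, read -0.06 on both arrays of pair 1, 0.81 and 0.48 for pair 2, and 0.61 and 0.36 for pair 3. The 4 arrays of pairs 2 and 3 were above both arrays of pair 1. Over 3 pairs the mean was 0.36 ± 0.37 (SD, n = 3; adjusted p = 0.417, and 0.228 with the block). Without pair 1 it was 0.56 with adjusted p = 0.0225 (n = 2 pairs). Ctla4, the inhibitory receptor for the same ligands, had -0.22 and 0.01 for pair 1, 0.36 and 0.55 for pair 2, and 0.03 and 0.44 for pair 3, a mean of 0.20 ± 0.28 (SD, n = 3; adjusted p = 0.544). Without pair 1 its mean was 0.35 (adjusted p = 0.0961). Icos, a relative of Cd28 on activated T cells, had -0.19, -0.01 and 0.23 in pairs 1, 2 and 3.

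Foxp3, the master transcription factor of regulatory T cells, which carry Ctla4 and Il2ra, had 0.01, 0.02 and 0.12 in pairs 1, 2 and 3, while its single arrays ran from -0.21 to 0.28. Il2ra, a chain of the interleukin-2 receptor, had 0.03 ± 0.03 (SD, n = 3), although its 4 probes had means from -0.11 to 0.22. The probe with mean 0.22 was positive on every array, from 0.09 (pair 1, LynDN in Cy5) to 0.55 (pair 2, LynDN in Cy3). Each of the other Il2ra probes had arrays on both sides of 0. The average over probes thus hides a difference between them, and this probe was singled out after its values were seen. Il2rb, which interleukins 2 and 15 share, had 0.0065 ± 0.07, and Il7r, the receptor for the survival cytokine interleukin-7, had -0.13, 0.12 and 0.20 in the pairs. The surface glycoproteins of T cells lay close to 0 on average. Cd2 had -0.08 ± 0.22, Cd5 -0.01 ± 0.04, Cd6 0.0032 ± 0.03 and Thy1, which fibroblasts also carry, 0.04 ± 0.26 (SD, n = 3). For Cd5 the 2 arrays of pair 2 gave 0.45 and -0.45, a gap hidden by averaging over the swap.

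In the NK and cytotoxic group Prf1 had the highest mean and the smallest p, and it passed neither fit. Prf1, the pore-forming protein of cytotoxic granules, had 0.29 and 0.23 for pair 1, 0.58 and 0.65 for pair 2, and 0.87 and 0.27 for pair 3. All 6 arrays were positive, which 1 of 36 members showed beside 3.72% of all rows, a share near the background. The lowest array of pairs 2 and 3 (0.27) lay below the highest of pair 1 (0.29). The mean was 0.48 ± 0.19 (SD, n = 3), 1.40-fold with a 95% interval from 1.20 to 1.63, and adjusted p was 0.258 on the pair values and 0.0679 with the block. Without pair 1 it was 0.59 (n = 2 pairs, adjusted p = 0.0142). The granzymes are the proteases that perforin lets into target cells, and their difference from Prf1 was not tested. Gzma had -0.05, 0.14 and 0.07 in pairs 1, 2 and 3. Gzmb had -0.08, 0.11 and -0.31 (adjusted p = 0.716), from arrays with -0.04 and -0.11 for pair 1, 0.24 and -0.02 for pair 2, and 0.15 and -0.77 for pair 3. Ifng, the interferon that NK and T helper 1 cells release, had -0.11, -0.02 and 0.07.

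The NK receptors lay within 0.1 of 0 on average. Ncr1, a natural cytotoxicity receptor found on NK cells, had 0.10, 0.15 and 0.02 in pairs 1, 2 and 3 (adjusted p = 0.553). Its single arrays gave 0.05 and 0.14 for pair 1, 0.27 and 0.03 for pair 2, and 0.09 and -0.04 for pair 3, and 5 of 6 were positive. Klrk1, the activating receptor NKG2D, had 0.03, -0.02 and -0.15. Klrd1, the CD94 chain, had -0.09, -0.10 and -0.03, but its sign followed the dye, with 0.14, 0.02 and 0.07 on the arrays with LynDN in Cy3 and -0.33, -0.22 and -0.13 on those with LynDN in Cy5. Such a turn on all arrays was seen in 2 of 36 members, Cd4 and Klrd1, and in 11.4% of all rows.

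**Figure D2:**
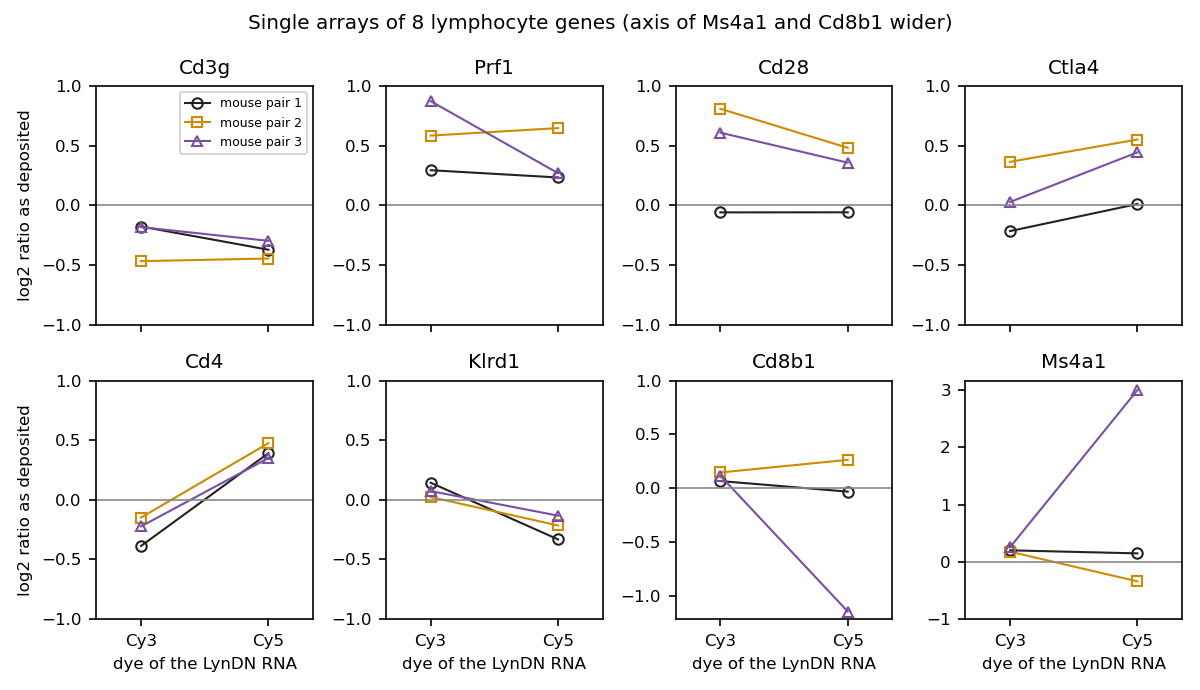
Log2 ratio of 8 lymphocyte genes (vertical axes) on the array with LynDN RNA in Cy3 and on that with LynDN RNA in Cy5, where each line joins the 2 arrays of a mouse pair. Cd3g and Prf1 keep 1 sign on 6 arrays, the lines of Cd4 and Klrd1 cross 0 in every pair, and Cd8b1 (-1.14) and Ms4a1 (3.00) have 1 far array each, both in pair 3.

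In the B group, the receptor chains Cd79a and Cd79b had -0.06 ± 0.14 and 0.04 ± 0.12 (SD, n = 3). Cd79a had -0.19, -0.06 and 0.08 and Cd79b -0.03, -0.04 and 0.18 in pairs 1, 2 and 3, so neither chain kept a side. Blnk, the adaptor that couples the receptor to downstream enzymes, had 0.02, -0.17 and -0.19 (adjusted p = 0.528), from arrays with 0.02 and 0.0090 for pair 1, -0.26 and -0.09 for pair 2, and -0.48 and 0.10 for pair 3. Cd22, the lectin that Lyn phosphorylates to dampen the receptor, had 0.16, 0.12 and 0.07, a mean of 0.12 ± 0.04 (adjusted p = 0.445), where single arrays read -0.08 and 0.39 for pair 1, 0.23 and 0.01 for pair 2, and 0.12 and 0.02 for pair 3. Pou2af1, a co-activator of antibody genes, had -0.12, -0.15 and -0.04, a mean of -0.10 ± 0.05 (adjusted p = 0.497), with 0.05 and -0.28, -0.14 and -0.15, and 0.01 and -0.10 on the arrays of pairs 1, 2 and 3. Pax5, which fixes B cell identity, had -0.02 ± 0.05, and the tetraspanin Cd37 had 0.03 ± 0.07.

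Ms4a1, the B cell antigen CD20, had the highest mean of all members, and it rested on 1 array. A single array far from the other 5 was seen in 6 of 36 members and in 8.9% of all rows. The values were 0.20 and 0.15 for pair 1, 0.18 and -0.34 for pair 2, and 0.25 and 3.00 for pair 3. The mean of 0.57 ± 0.92 (SD, n = 3; 95% interval from -0.31 to 1.45; adjusted p = 0.552) became 0.12 without that array. By that criterion Ms4a1 was the only gene of the B group with a far array. On the same array Cd79a (0.21), Cd79b (0.34), Cd37 (0.21) and Blnk (0.10) each had the highest of their own 6 values. Pax5 (0.08), Cd22 (0.02) and Pou2af1 (-0.10) did not.

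**Figure D3:**
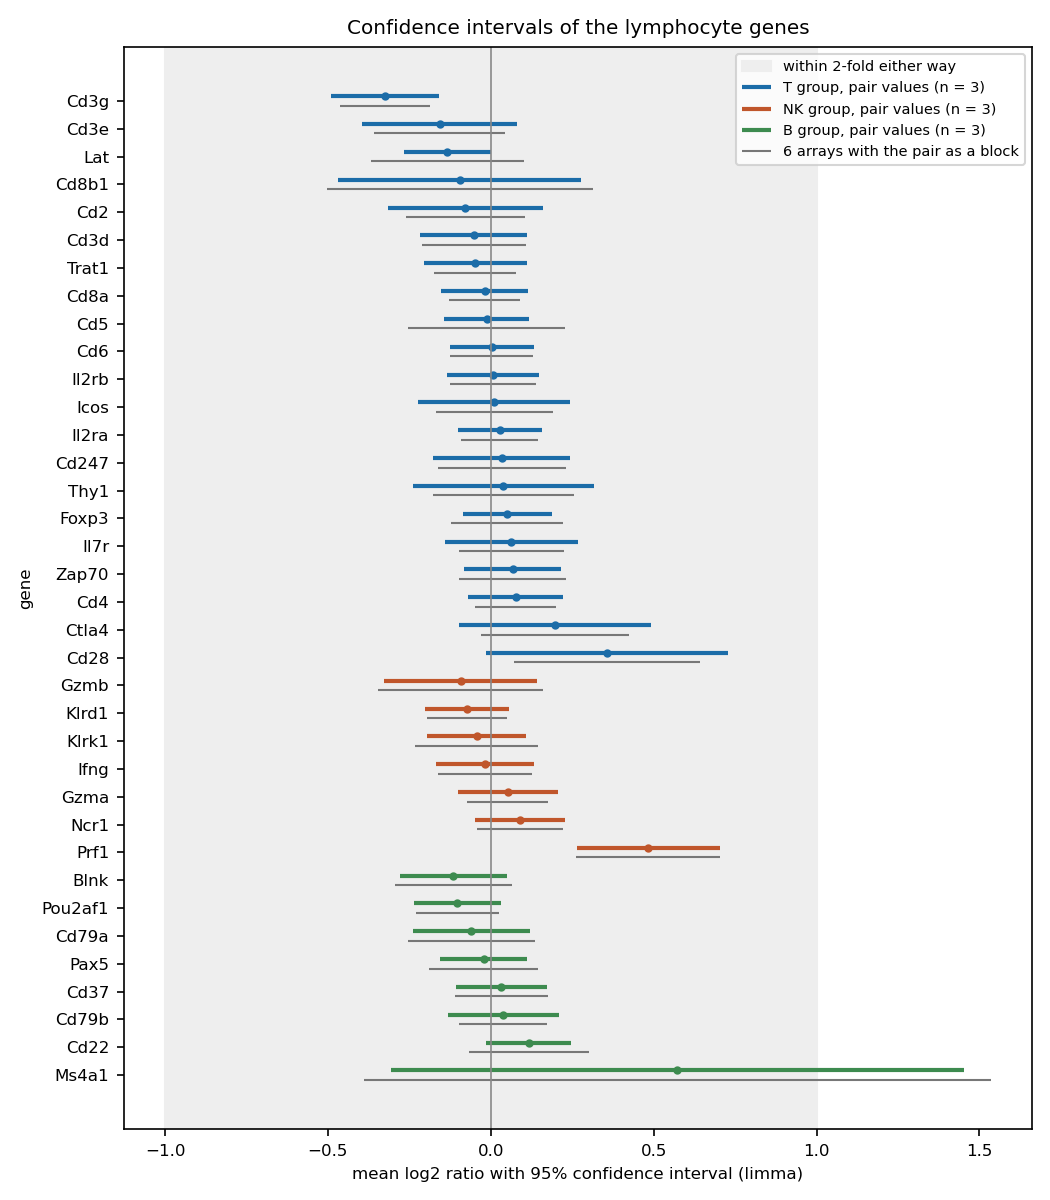
Mean log2 ratio (dots) with its 95% confidence interval (horizontal lines) for each lymphocyte gene, from the 3 pair values in colour and from the 6 arrays with the pair as a block in grey; the shaded band marks 2-fold either way. Of the 36 intervals from the pair values, 35 lie inside the band, and those of Prf1 and Cd3g do not reach 0.

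Leaving out pair 1, which left n = 2 pairs, raised the calls over all rows to 1117, which is 4.88% of rows (3.22% positive and 1.67% negative). Of the members 2 of 36 passed then, Cd28 and Prf1, both positive. Without pair 2 or without pair 3, 0 members passed, where 0.00874% and 0.0175% of all rows did. The median of all members was -0.04, -0.02 and 0.06 in pairs 1, 2 and 3.

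Further genes of these cells were taken from lists drawn up by name. Of 29 other genes of T cell receptor signalling 0 passed on the pair values or with the block, and the median was -0.03. The smallest p values belonged to Fyb, an adaptor of T cells and other leukocytes, with 0.25 ± 0.03, Bcl10, which links antigen receptors to NF-kB, with 0.31 ± 0.22, and Sla, a Src-like adaptor, with -0.19 ± 0.13 (SD, n = 3). Bcl10 had 0.06, 0.43 and 0.45 in pairs 1, 2 and 3. It was the 1 gene of these 29 called without pair 1 (adjusted p = 0.0287), where 3.22% of all rows were called positive. Of 33 genes of T cell subsets and homing 0 passed in either fit, with a median of 0.0066. The cytokines Il17f and Il22 act on keratinocytes. Il17f had 0.08, 0.55 and 0.43, and Il22 0.15, 0.47 and 0.28, in pairs 1, 2 and 3. Their means were 0.35 ± 0.24 and 0.30 ± 0.16 (adjusted p = 0.322 and 0.296). Il17a had 0.18, 0.13 and -0.15. The chromatin organiser Satb1 had -0.39 ± 0.29 (SD, n = 3). Without pair 1, 3 genes of this list passed on the positive side, Selplg (0.78), Il17f (0.49) and Tnfrsf18 (0.38), where 3.22% of all rows did. On the negative side 1 passed, where 1.67% of all rows did. It was Gata3 (-0.68), a transcription factor that hair follicle cells also use. Of 23 names listed for gamma delta T cells, 11 genes were measured. No gene of the gamma delta receptor chains was found under the names listed, so the receptor itself was not followed. Of the 11 genes, 0 passed in either fit or without pair 1. Cd163l1, a scavenger receptor of gamma delta T cells, had 0.27 ± 0.20, Sox13, a transcription factor of that lineage, had 0.11 ± 0.05, and the interleukin-1 receptor Il1r1, which many other skin cells carry, had 0.24 ± 0.28.

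Of 31 other cytotoxic genes measured, 0 passed in either fit (median 0.02). A positive mean was seen in 21 of them, and in 8235 of 18617 named genes. At an unadjusted p under 0.05 on the pair values there were 4, all negative, where 12.3% of all rows lay under it, and in the block fit 3 positive and 3 negative, where 14.5% did. The 3 smallest p values were those of Nkg7, Ctsw and Il15. The granule protein Nkg7 had -0.39, -0.20 and -0.24, the protease Ctsw -0.25, -0.19 and -0.35, and Il15, a cytokine that sustains NK cells, -0.18, -0.46 and -0.26 in pairs 1, 2 and 3. Their means were -0.28 ± 0.10, -0.26 ± 0.08 and -0.30 ± 0.14 (adjusted p = 0.278, 0.278 and 0.282). The 3 genes called without pair 1 were all positive, Tyrobp (0.90), Srgn (0.82) and Ctsc (0.44), where 3.22% of all rows were called positive. Myeloid cells express each of these 3 genes. Of 37 other B and plasma cell genes 0 passed in either fit (median 0.05). Fcrl1, a receptor of B cells, had 0.28 ± 0.12, Mzb1, a chaperone of antibody-secreting cells, 0.17 ± 0.06, and Sdc1, a plasma cell marker that keratinocytes also express, 0.38 ± 0.21 (SD, n = 3; adjusted p = 0.282, 0.339 and 0.283). Without pair 1, 5 passed positive, Fcgr2b (1.43), Cd74 (0.70), Sdc1 (0.48), Prdm1 (0.42) and Fcrl1 (0.35), where 3.22% of all rows did. Which cells gave these values was not tested, and 13 of 18 macrophage and monocyte genes also passed positive without pair 1. The 1 gene of the B and plasma cell list called negative without pair 1 was Ighm, where 1.67% of all rows were. Ighm, the constant region of the IgM heavy chain, is named here after its values were seen. It had 0.42 and -0.12 for pair 1, -0.64 and -1.07 for pair 2, and -1.71 and -1.82 for pair 3. The mean was -0.82 ± 0.96 over 3 pairs (SD, n = 3; adjusted p = 0.441) and -1.31 without pair 1 (adjusted p = 0.0443). Genes of lymph node stroma, listed as a check for tissue other than skin, had a median of -0.01 over 8 genes, with 0 called.

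Lists of other cells of the skin were measured in the same RNA. Of 18 pan-leukocyte genes 15 had a positive mean, with medians of -0.03, 0.18 and 0.30 in pairs 1, 2 and 3. Among them Cd52 had the highest mean, 0.80 ± 0.68, and the actin bundler Lcp1 had 0.52 ± 0.35 (SD, n = 3). Of 18 macrophage and monocyte genes 17 had a positive mean, with medians of -0.08, 0.50 and 0.78. Over the array, 8235 of 18617 named genes had a positive mean. None of the 18 pan-leukocyte and the 18 macrophage and monocyte genes passed in either fit. At an unadjusted p under 0.05 there were 5 and 7 of them on the pair values, where 12.3% of all rows lay under it, and 8 and 14 in the block fit, where 14.5% did, all positive. Of 14 neutrophil genes 2 passed on the pair values, S100a8 and S100a9, which keratinocytes also make, and 3 with the block, with Csf3r (0.38 ± 0.12) as the third. Without pair 1, 7 pan-leukocyte, 13 macrophage and monocyte and 9 neutrophil genes passed, all positive, where 4.88% of all rows passed. Of 13 genes of dendritic and Langerhans cells, 0 passed in either fit or without pair 1, and the medians were 0.06, -0.07 and 0.11 in pairs 1, 2 and 3. The list medians of the tissue itself also differed between pairs. The median of 9 epidermal genes was -0.01, -0.69 and -1.23, but this list holds genes of both directions. In all 3 pairs 4 of them were positive and 5 negative, with means from -2.23 to 4.82. At an unadjusted p under 0.05 on the pair values there were 4 positive and 5 negative, where 12.3% of all rows lay under it. Of the 9 genes 1 was called on the pair values (Krt16, positive). With the block 3 positive (Krt14, Krt16 and Krt6b) and 3 negative (Lor, Flg and Krt15) were called. The median of 8 genes of dermis and fat was -0.04, -0.16 and -0.25, with 0 called in either fit. The part of these changes in the members' values was not tested. The members' medians were -0.05, -0.00012 and 0.06 in the T group, -0.05, 0.11 and 0.02 in the NK group and -0.01, -0.05 and 0.08 in the B group. The difference between these lists and the members was not tested.

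**Figure D4:**
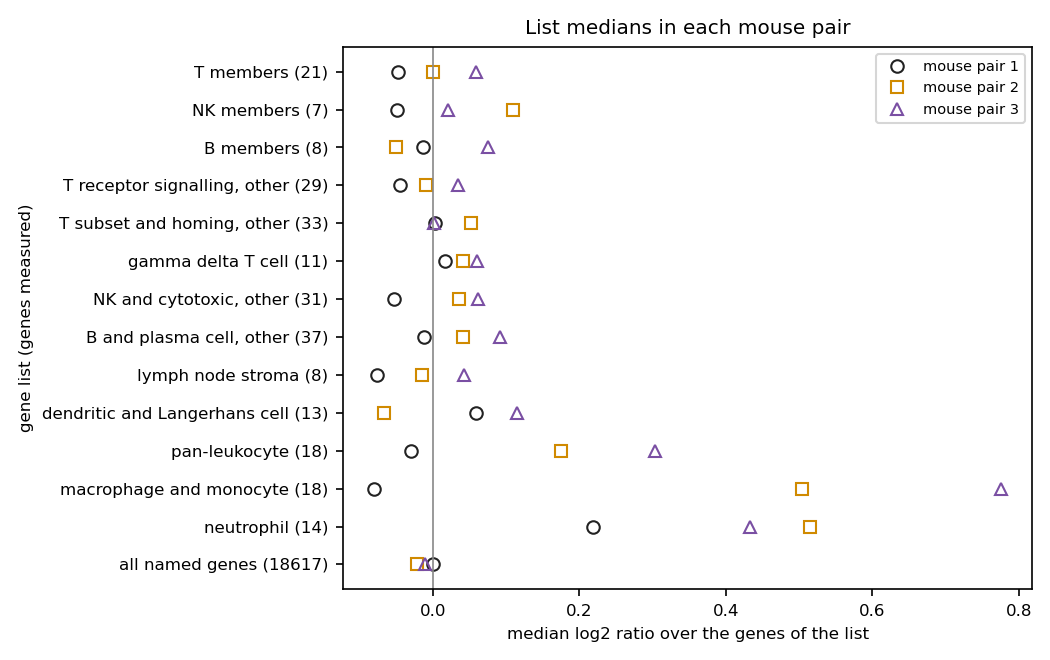
Median log2 ratio (horizontal axis) over the measured genes of each list (number in brackets) in mouse pairs 1, 2 and 3. The T, NK and B medians lie between -0.05 and 0.11 in all pairs, and the macrophage and monocyte median is -0.08 in pair 1 and 0.50 and 0.78 in pairs 2 and 3.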

How the data were processed

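Total RNA from skin was extracted with Qiagen and labelled with Ambion reagents, per the labels' protocols. For each of 25344 probes the deposited table holds a log2 ratio on every array. Base 2 was assumed from the range of values (-6.34 to 6.16), and each column has a mean of 0. Numerator, scanner, background correction and normalization: not given in the sources used here. Values of the last rows (from 21000) are rounded to 3 significant digits or fewer in 98.6% of cases, and 7 members lie there (Cd3d, Cd3e, Cd4, Cd2, Lat, Prf1 and Ifng).

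Probes were named through the platform annotation: 21082 had 1 gene symbol, 30 several and 4232 none. Probes of 1 symbol were averaged on each array, which left 22879 rows (18617 named). Per the labels, both arrays of a pair hold RNA of the same mice, so they were averaged. Whether the mean of the 3 pair values differs from 0 was tested in R 4.3.3 with lmFit and eBayes of limma 3.58.1, with Benjamini-Hochberg adjustment and a threshold of 0.05. The block fit took 6 arrays, a dye term and the pair as a random block (consensus correlation 0.151). The numbers pair the samples because both arrays of a pair hold the same mice. SDs over pairs leave out gaps between the 2 arrays of a swap. The tests were run on simulated rows with known changes larger than the mean of any member. Those rows had no dye effect and no pair unlike the others. The check therefore does not cover these features of the data, and its outcome is not given here. The number of arrays limits the precision.

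The members and lists were chosen with earlier results of these data known. Given in full are members past the threshold in either fit and the 4 with the smallest p of each group. Of the other T, NK and B cell lists, genes past the threshold and the 3 with the smallest p are named. Of the remaining lists, genes past the threshold are named, and Cd52 for its highest mean. Cd4, Klrd1, Cd8b1, Il17a, Ighm, Cd52, Lcp1 and the genes called without pair 1 were named after their values were seen. Alternatives left out each pair, used 1 dye orientation, and changed the normalization, the centring and the averaging of probes. Figures were drawn with matplotlib 3.10.9.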

Additional observations from a re-analysis of the deposited data

Results flagged for a closer look

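In 6 members 1 array lay far from the other 5, by a criterion that chance meets in about 1 in 20 groups and that 8.9% of all rows met. The values were 3.00 for Ms4a1, -1.14 for Cd8b1 and -0.77 for Gzmb, all on the array of pair 3 with LynDN in Cy5. On the array of pair 1 with LynDN in Cy3 they were 0.51 for Cd247 and -0.29 for Ifng, and Il2ra had 0.18 on the array of pair 2 with LynDN in Cy3. In 2 members the sign differed between the dye orientations on all arrays. The ratio with LynDN in Cy5 minus that with LynDN in Cy3 was 0.66 for Cd4 (adjusted p = 0.0210, dye term of the block fit) and -0.31 for Klrd1 (adjusted p = 0.109).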

How the results depend on the processing

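The number of rows called over the whole array was 4 and varied with the fit. It was 243 with the pair as a replicate block, 72 after quantile normalization, 54 with the arrays with LynDN in Cy3 alone, 24 with those with LynDN in Cy5 alone, 0 without variance moderation, and 10 without the array of pair 3 with LynDN in Cy5, an alternative chosen after seeing the data. Leaving out 1 pair at a time gave from 2 to 1117. The count of members called was 0 in each group and stayed so under the alternatives run, the replicate block included, except that leaving out pair 1 gave 1 T gene (Cd28) and 1 NK gene (Prf1), a range of 0 to 1 in each of these groups. The block changed no call of a member. The T median moved to -0.052 with LynDN in Cy5 alone and the NK median to 0.08 with LynDN in Cy3 alone. Of 120 values of the 12 members given in full, 6 changed sign: Gzmb, which ran from -0.19 to 0.016 as 1 pair was left out, to 0.12 with LynDN in Cy3 alone and 0.061 without the array of pair 3 named above, Klrd1 to 0.080 with LynDN in Cy3 alone, and Blnk to 0.0080 and Lat to 0.060 with LynDN in Cy5 alone. The cause of these changes was not tested. With spot intensities not used here, signal over background could not be weighed.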
